A study of Arabidopsis thaliana with 11 samples.

Results

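Chromatin-bound RNA from which polyadenylated RNA had been removed (RNAe) was compared with chromatin-bound RNA that kept it (RNAe + RNAf), gene by gene. The members are the genes with 20 or more exonic reads in each of these groups, adding up the 5ʹ and 3ʹ sites of every intron. They numbered 14863 of the 22121 genes listed, with 97472 of 121244 introns. Of the other genes, 941 were counted in both groups but missed the minimum in at least 1 of them. At the threshold, 50 members had exactly 20 reads in the smaller of the 2 groups, and 57 genes just outside had 19. The tables name genes by locus. RefSeq listed 14806 of the members, 14619 of them as protein coding.

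All libraries came from 10-day-old seedlings of Arabidopsis thaliana Col-0, the laboratory wild type, and the labels name no treatment of the plants. RNAe (2 libraries) was depleted of rRNA and, with oligo d(T) beads, of polyadenylated RNA, whereas RNAe + RNAf (2 libraries) was depleted of rRNA alone. CB-RNA (2 libraries), likewise depleted of rRNA alone, served as a second preparation of that kind. RNAf (2 libraries) is the polyadenylated fraction caught on the beads, and mRNA (3 libraries) is polyadenylated RNA of seedlings. Seedlings mix leaf, stem and root cells, so fewer cells of a type and less RNA per cell cannot be told apart.

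Each group is given as 1 pooled set of read counts, so the spread between its libraries is unknown and no test was possible. A gene is called changed when its share moved by 2-fold or more, and intervals are 95% intervals that cover counting error only. One read may be counted beside several introns, so these intervals are too narrow. Exonic reads summed to 15088650 in RNAe and 11171791 in RNAe + RNAf. The median member had 403 exonic reads in RNAe and 316 in RNAe + RNAf.

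RNA polymerase II makes an RNA from the 5ʹ end of a gene to the 3ʹ end, and introns are removed while the RNA is still attached. An unfinished RNA holds the 5ʹ part of the gene only. Once the polymerase has passed the polyadenylation site, the RNA is cleaved and receives a poly(A) tail, and such an RNA can stay on chromatin for a time before its release. Reads beside a splice site are exonic when they lie in the exon or join 2 exons and intronic when they lie in the intron. The 5ʹSS ratio and 3ʹSS ratio are the intronic reads over the exonic reads at the site, so an unspliced intron has a high ratio.

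The introns below are 7 of those in which the ratio differed most between the groups among well-covered sites, together with the last intron of PRR7. They are shown 5ʹ to 3ʹ as RNA-sense DNA from the RefSeq copy of the genome (TAIR10.1), and the capitals mark the first and last 2 bases, the GT and AG that the splicing machinery requires.
RCA intron 5 (Chr2:16571473-16571553, minus strand): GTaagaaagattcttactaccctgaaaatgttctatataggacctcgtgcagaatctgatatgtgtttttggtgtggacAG
RCA intron 6 (Chr2:16571067-16571190, minus strand): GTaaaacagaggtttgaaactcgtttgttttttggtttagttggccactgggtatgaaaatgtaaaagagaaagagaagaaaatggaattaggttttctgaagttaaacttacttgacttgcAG
CA1 intron 2 (Chr3:196506-196663, minus strand): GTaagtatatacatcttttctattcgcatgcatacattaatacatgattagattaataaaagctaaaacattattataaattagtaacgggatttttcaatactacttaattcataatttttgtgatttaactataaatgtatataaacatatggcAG
GLDP1 intron 12 (Chr4:15927161-15927257, minus strand): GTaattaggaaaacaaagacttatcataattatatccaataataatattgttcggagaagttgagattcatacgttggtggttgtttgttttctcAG
AT3G08740 intron 6 (Chr3:2654907-2655002, minus strand): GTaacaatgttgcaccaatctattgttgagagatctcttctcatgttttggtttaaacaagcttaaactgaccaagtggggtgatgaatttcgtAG
PAS1 intron 19 (Chr3:20004617-20004751, plus strand): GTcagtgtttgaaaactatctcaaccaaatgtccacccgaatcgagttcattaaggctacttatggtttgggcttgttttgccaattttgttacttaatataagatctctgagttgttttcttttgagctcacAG
AT1G06720 intron 17 (Chr1:2060777-2060871, minus strand): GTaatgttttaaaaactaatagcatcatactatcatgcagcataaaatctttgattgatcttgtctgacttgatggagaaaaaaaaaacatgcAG
PRR7 intron 8 (Chr5:638403-638505, minus strand): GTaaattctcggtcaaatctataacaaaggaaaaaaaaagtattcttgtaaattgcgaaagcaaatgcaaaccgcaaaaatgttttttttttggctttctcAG

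Most genes kept their exonic share when polyadenylated RNA was removed. The share is the exonic reads of a gene over those of all genes of the group, given in RPM, the usual scale for reads relative to a total, which here is the exonic reads of the group. The median log2 change, RNAe over RNAe + RNAf, was -0.04, and 11213 members (75.4%) lay within 1.5-fold. The share was lower in RNAe by 2-fold or more in 758 members (5.1%) and higher by 2-fold or more in 374 (2.52%). The CB-RNA and RNAe + RNAf preparations, both with polyadenylated RNA, differed in more genes: of 14868 genes, 1439 (9.68%) were lower in CB-RNA and 455 (3.06%) higher. Against CB-RNA, RNAe was 2-fold lower in 302 (1.99%) and higher in 760 (5.01%) of 15159 genes, so the balance of losses over gains turned round with the preparation it was set against. The genes that were lower in RNAe than in both other preparations numbered 103 (0.702% of 14667), and those higher than in both numbered 79 (0.539%).

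The position of an intron in its gene went with a graded change. In genes with at least 5 introns, the exonic reads beside the last intron changed by a median of -0.33 on the log2 scale relative to the whole gene, and those beside the first intron by 0.20, a difference of -0.53. Set against CB-RNA, the difference between last and first introns was -0.50, so it was present with both preparations. In 10 equal bins of relative position along the gene, the change relative to the gene was 0.19 in the first, 0.07 in the fifth and -0.33 in the last. Genes with 10 introns showed the same order, with a median change of share of 0.24 beside the first intron and -0.40 beside the tenth.

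Measured as distance from the intron to the 3ʹ end of the gene, exonic reads had a median log2 change of share of -0.48 under 250 bp (632 introns), -0.30 at 500 to 750 bp, -0.04 at 1000 to 1500 bp, 0.15 at 2000 to 3000 bp and 0.30 at 6000 bp or more (3384 introns). RNAe over CB-RNA ran from -0.29 under 250 bp to 0.37 at 6000 bp or more. The 2 preparations with polyadenylated RNA differed from each other by between -0.21 and -0.05 over the same bins. Against RNAe + RNAf, medians under -0.1 were confined to the bins within 1000 bp of the 3ʹ end, and medians above 0 to those from 1500 bp on. The farthest bin holds introns of 515 genes, which must be long. Relative to the whole gene, the median change was -0.27 under 250 bp, 0.11 at 2000 to 3000 bp and 0.12 at 6000 bp or more. Within genes it was thus nearly level from 2000 bp on.

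**Figure D1:**
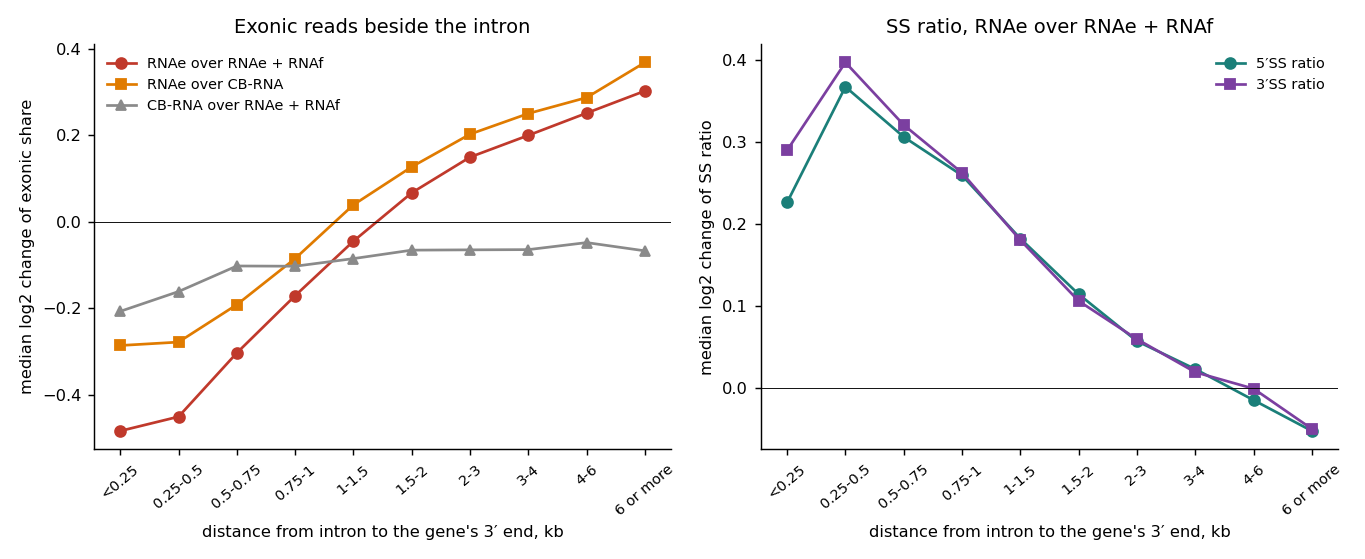
Introns of the members are grouped by distance to the 3ʹ end of the gene, in kb. The left panel gives the median log2 change of exonic share beside the intron for 3 pairs of groups, from -0.48 nearest the end to 0.30 farthest from it for RNAe over RNAe + RNAf. These changes are not relative to the whole gene. The right panel gives the median log2 change of the 5ʹSS ratio and the 3ʹSS ratio in that pair, highest at 0.25 to 0.5 kb and near 0 beyond 3 kb.

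Single genes followed the same course to different degrees. The introns of each gene were split at the middle into a 5ʹ part and a 3ʹ part. Among 2571 genes with at least 10 introns and 500 exonic reads in both groups, the exonic reads of the 3ʹ part over the 5ʹ part had a median log2 of -0.29 in RNAe and -0.02 in RNAe + RNAf. RNAe was the lower of the pair in 2092 of these genes (81.37%). The same measure had a median of 1.20 in RNAf, the polyadenylated fraction that the comparison did not use.

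AT3G55080, which encodes a SET domain protein and lies on chromosome 3 (RefSeq 20411342 to 20416043, minus strand), had the largest difference. In RNAe, 261 exonic reads lay in the 5ʹ part of its 14 introns and 256 in the 3ʹ part, while RNAe + RNAf had 112 and 388 and CB-RNA 666 and 839. On the log2 scale the 3ʹ part over the 5ʹ part came to -0.03 for RNAe, 1.79 for RNAe + RNAf and 0.33 for CB-RNA, so RNAe lay nearer to CB-RNA. Beside intron 12 the level was 3.38 RPM in RNAe and 8.86 RPM in RNAe + RNAf. Beside introns 1 to 7 the order of these groups was the other way round, but CB-RNA was above RNAe beside introns 4 to 7, where intron 5 had 2.52 RPM in RNAe and 4.41 RPM in CB-RNA.

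ATE2F2 (AT1G47870), an E2F-family transcription factor of the cell cycle with 12 introns, had 282 reads in the 5ʹ part and 300 in the 3ʹ part in RNAe, against 150 and 537 in RNAe + RNAf and 493 and 733 in CB-RNA. Its excess in RNAe + RNAf was largest beside introns 8 to 10, where that group had 122, 153 and 118 exonic reads and RNAe had 46, 64 and 69. In RPM, RNAe + RNAf was also higher beside introns 1, 7, 11 and 12, with 4.39 against 2.39 in RNAe beside intron 7. AT5G42690, annotated as a putative transcription factor with 11 introns, had 368 and 238 in RNAe against 159 and 354 in RNAe + RNAf and 409 and 546 in CB-RNA.

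At the other end, UPL4 (AT5G02880), a ubiquitin-protein ligase with 16 introns, had 4700 and 1884 reads in RNAe and 2619 and 1050 in RNAe + RNAf, a log2 of -1.32 in both groups. ABCC13, an ABC transporter with 32 introns, had a log2 of -0.38 in both. HBT, the CDC27 subunit of the anaphase-promoting complex, had -0.55 in both. In RNAf the same measure was 2.46 for UPL4, 1.75 for ABCC13 and 1.60 for HBT. These 3 genes were chosen for the smallest difference between RNAe and RNAe + RNAf, and CB-RNA was higher than both, with -0.93 for UPL4, -0.17 for ABCC13 and -0.35 for HBT.

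**Figure D2:**
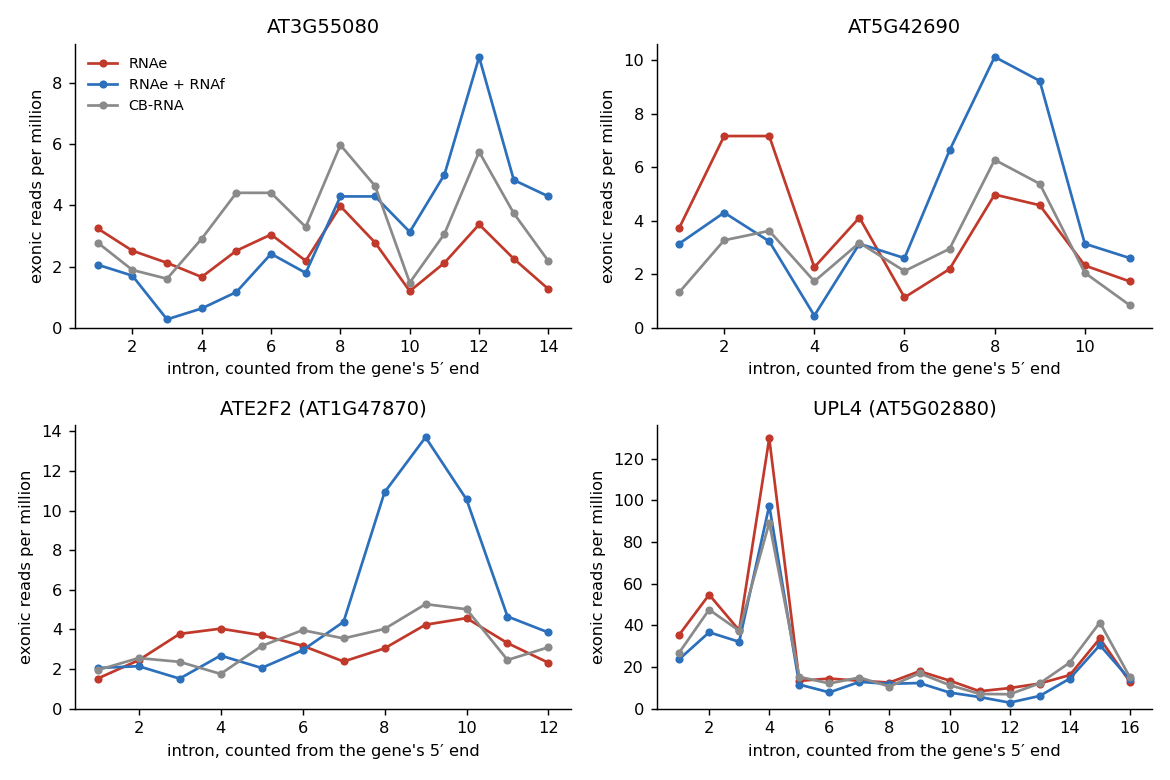
Exonic reads beside each intron, in RPM of the exonic reads of the group, along AT3G55080, AT5G42690, ATE2F2 and UPL4, with introns counted from the 5ʹ end. RNAe lies under RNAe + RNAf in the 3ʹ part of the first 3 genes, whereas in UPL4 all 3 lines peak at intron 4.

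Exonic share also went with gene length. The median log2 change of the exonic share was 0.16 in 1302 genes of 5 kb or more and -0.18 in 4665 genes under 2 kb, a difference of 0.34. It was lowest, at -0.39, in the 496 genes under 1 kb and highest, at 0.21, in the 242 genes of 8 kb or more. The share was 2-fold lower in 17.3% of the genes under 1 kb and in 0.826% of those of 8 kb or more, against 5.1% of all members. It was 2-fold higher in 2.82% and 0.413%. The median exonic reads in RNAe + RNAf were 82 and 3068.5, so counting error was larger in the short genes. Part of the difference was already present between the other 2 preparations: CB-RNA over RNAe + RNAf was -0.33 under 1 kb and -0.10 at 8 kb or more. RNAe over CB-RNA was -0.03 under 1 kb and 0.33 at 8 kb or more, and the difference between long and short genes against CB-RNA was 0.19.

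The number of introns was set apart from gene length. Genes with 20 or more introns had a median change of 0.13, and genes with 1 intron -0.10. Among genes of 2 to 5 kb the order by intron number turned round, with medians of 0.03, 0.10 and 0.03 for 1, 2 and 3 to 4 introns and of -0.05 for 5 to 9, 10 to 19 and 20 or more. RNAe over CB-RNA ran from 0.31 with 1 intron to -0.05 with 20 or more in these genes. Among genes with 5 to 9 introns the order by length stayed, with -0.26 under 2 kb and 0.21 at 5 kb or more.

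The median change of exonic share was somewhat higher in genes with longer introns. Against RNAe + RNAf the median change was -0.10 in genes whose introns averaged under 90 bp and -0.02 in those with 300 bp or more. Within genes of 2 to 5 kb these medians were -0.03 and 0.04. RNAe over CB-RNA was 0.03 and 0.17 in the same bins, and 0.09 and 0.21 within genes of 2 to 5 kb. For the reads beside single introns, RNAe over CB-RNA was 0.02 under 80 bp and 0.25 at 1000 bp or more. Against RNAe + RNAf these medians were -0.03 and 0.04. Distance to the 3ʹ end mattered here. At 2 kb or more from it, RNAe over CB-RNA was 0.24 for introns under 100 bp and 0.28 for those of 300 bp or more. Under 1 kb from it, these medians were -0.21 and 0.02.

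**Figure D3:**
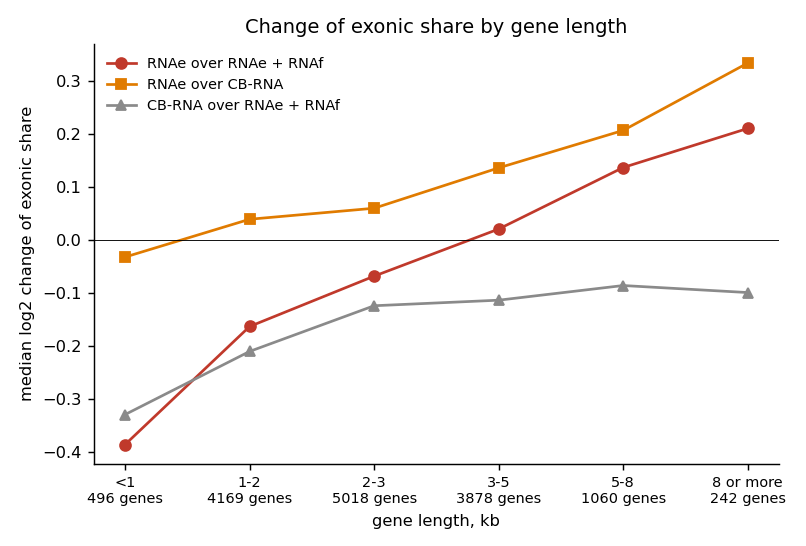
Median log2 change of the exonic share by gene length in kb, for 3 pairs of groups, with the number of genes in each bin under the axis. RNAe over RNAe + RNAf is -0.39 under 1 kb and 0.21 at 8 kb or more.

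The balance of exonic and intronic reads also differed between RNAe and RNAe + RNAf, and the part of the removal itself was not tested. Exonic reads were 74.3% of exonic plus intronic reads in RNAe, 76.1% in RNAe + RNAf and 75.7% in CB-RNA. The exonic fraction, exonic over exonic plus intronic reads of a gene, had a median of 71.0% in RNAe and 73.8% in RNAe + RNAf. It was lower in RNAe in 10107 members (68.0%), with a median difference of -2.04 percentage points. It was lower by 10 points or more in 1241 members (8.35%) and higher by as much in 375 (2.52%). The median difference was -2.85 points in genes of 1 to 2 kb and 0.05 in genes of 8 kb or more.

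Site by site, the ratio was higher in RNAe near the 3ʹ end. At 250 to 500 bp from the end the 5ʹSS ratio had a median of 0.433 in RNAe and 0.300 in RNAe + RNAf, a median log2 change of 0.37, and the 3ʹSS ratio changed by 0.40. At 3000 to 4000 bp the changes were 0.02 at both sites. Last introns had a median 5ʹSS ratio of 0.419 in RNAe and 0.306 in RNAe + RNAf, first introns 0.275 and 0.261.

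The change of the ratio against RNAe + RNAf was smaller in long introns. Introns of 300 bp or more had a median log2 change of the 5ʹSS ratio of 0.10 and introns under 100 bp 0.18, a difference of -0.08. For the 3ʹSS ratio the difference was -0.07. Against CB-RNA these differences were nearly gone, at -0.031 for the 5ʹSS ratio and -0.0068 for the 3ʹSS ratio. In introns of 1000 bp or more the 5ʹSS ratio had a median of 0.547 in RNAe and 0.50 in RNAe + RNAf, against 0.286 and 0.238 in introns of 80 to 100 bp. In genes with at least 5 introns, 2168 introns of 300 bp or more were first introns and 371 were last introns, and position and length were therefore set apart. Among last introns of these genes, the 5ʹSS change was 0.22 at 300 bp or more and 0.39 under 100 bp. Among first introns it was 0.07 and 0.02.

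Single introns with large changes are those whose sequences are given above. Apart from that of PRR7, they have at least 100 exonic and 20 intronic reads at the site in both groups, a rule set after the values were seen. Of 7936 such 5ʹ sites, 945 had a higher ratio in RNAe and 420 a lower one, with an interval that excluded no change. Of 9416 such 3ʹ sites, 1168 were higher and 441 lower.

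The last of the 6 introns of AT3G08740, an elongation factor P family gene, had 39 intronic and 134 exonic reads at its 5ʹ site in RNAe and 24 and 337 in RNAe + RNAf. This gave 0.291 intronic reads per exonic read in RNAe, with limits of 0.204 and 0.415, and 0.0712 in RNAe + RNAf, with limits of 0.0472 and 0.107. The last intron of PAS1, an FKBP-type immunophilin gene, had a ratio of 0.185 in RNAe and 0.0474 in RNAe + RNAf. At the 3ʹ site of the last intron of AT1G06720, RNAe had a ratio of 0.563 and RNAe + RNAf 0.145. In CB-RNA the ratios of AT3G08740, PAS1 and AT1G06720 were 0.155, 0.105 and 0.157, each between those of the other groups. These 3 introns lie 285 to 529 bp from the 3ʹ end of their genes. Not all of the largest rises were in last introns. The others were intron 1 of 2 in SP1L3 and in AT3G48140, intron 2 of 5 in AT4G01593, and the last intron of AT2G37660.

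The largest falls were in photosynthetic and photorespiratory genes. Intron 6 of RCA, which encodes rubisco activase, had 20 intronic and 377 exonic reads at its 3ʹ site in RNAe and 132 and 349 in RNAe + RNAf, a ratio of 0.0531 in RNAe, with limits of 0.0340 and 0.0829, and 0.378 in RNAe + RNAf, with limits of 0.310 and 0.462. Intron 5 of the same gene had a 5ʹSS ratio of 0.0366 in RNAe and 0.200 in RNAe + RNAf. Intron 2 of CA1, a chloroplast carbonic anhydrase gene, had 0.0484 in RNAe and 0.254 in RNAe + RNAf, and intron 12 of GLDP1, the glycine decarboxylase P protein of photorespiration, 0.102 and 0.472. In CB-RNA these 4 ratios were 0.138, 0.0933, 0.0731 and 0.211, each between those of the other groups.

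By the rule with at least 50 exonic reads, the sites at the extremes had no intronic read in 1 of the groups. The 3ʹ site of intron 8 of PRR7, a pseudo-response regulator of the circadian clock, had 410 intronic and 875 exonic reads in RNAe and 0 and 101 in RNAe + RNAf. Taking 3 reads as the limit that a count of 0 allows, and the other counts as exact, its ratio was 15.8-fold higher in RNAe. The interval of the log2 change was 2.56 to 10.6, and in CB-RNA the ratio was 0.217. AT2G39805 encodes a Yip1-family membrane protein. The 5ʹ site of its intron 2 had 0 intronic and 103 exonic reads in RNAe and 18 and 55 in RNAe + RNAf. On the same measure the ratio was 11.2-fold lower in RNAe, with an interval of -10.2 to -2.03 for the log2 change. In CB-RNA the ratio was 0.216. The other sites named by this rule differed by between 4.57-fold and 10.2-fold on that measure. For the smallest of these, CNGC3, the interval of the log2 change was -8.94 to -0.73.

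Losses and gains of exonic share ran together with the intronic reads of the same gene. Of the 758 genes with a 2-fold lower exonic share, 617 had at least 20 intronic reads in both groups, and the intronic share was also lower in 601 of them and 2-fold lower in 336. Of the 290 such genes with a higher exonic share, the intronic share was higher in 284 and 2-fold higher in 155. Over all members with enough intronic reads, 5.32% had a 2-fold lower and 2.63% a 2-fold higher intronic share. The lowest point of the plot is AT1G13609, named here after its value was seen, with a log2 change of -6.41 for the exonic and -6.40 for the intronic share.

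**Figure D4:**
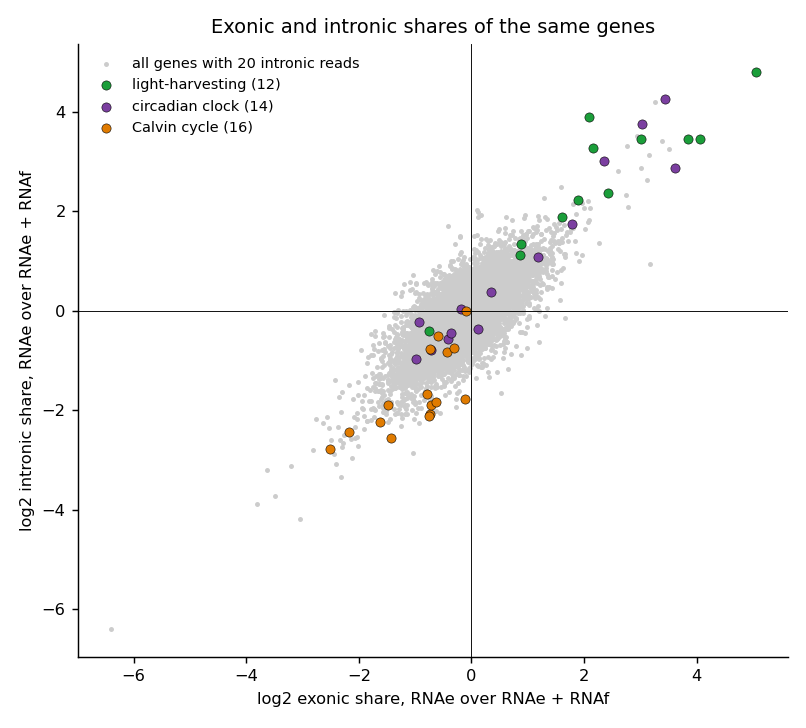
Each point is a gene with at least 20 intronic reads in both groups, placed by the log2 change of its exonic share (x) and of its intronic share (y), RNAe over RNAe + RNAf. Coloured points are 12 light-harvesting genes, mostly in the upper right, 14 clock genes, spread from the centre to the upper right, and 16 Calvin cycle genes, in the lower left.

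The 10 largest falls among genes with 100 or more exonic reads in each group were between 5.02-fold and 12.4-fold. JMJD5 (AT3G20810, chromosome 3, RefSeq 7275645 to 7278420, plus strand), a jumonji-domain oxygenase tied to the clock, had 12.8 RPM in RNAe (193 reads) and 159 RPM in RNAe + RNAf (1772 reads), a log2 change of -3.63 (95% interval -3.85 to -3.42). Its intronic share changed by -3.20. CB-RNA had 10.8 RPM, close to RNAe.

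RVE2 (AT5G37260), a MYB-like factor of the same family as the clock regulators CCA1 and LHY, had 27.1 RPM in RNAe, 305 in RNAe + RNAf and 38.9 in CB-RNA. COR27, a cold- and light-regulated gene, had 7.16 RPM in RNAe, 50.4 in RNAe + RNAf and 11.2 in CB-RNA. In JMJD5, RVE2 and COR27 the RNAe + RNAf value stood apart and the other groups lay near each other.

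Several of the other falls were in nuclear genes that encode chloroplast proteins. NdhU, a subunit of the NADH dehydrogenase-like complex of thylakoids, had 12.1 RPM in RNAe, 99.98 in RNAe + RNAf and 47.8 in CB-RNA. CA1 had 509 RPM in RNAe, 2553 in RNAe + RNAf and 607 in CB-RNA, the highest level among the falls. The others were AT4G12830 (an alpha/beta hydrolase), CGLD27, RBCS1B, ACA1 (an alpha carbonic anhydrase) and SQS2.

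SQS2 (AT4G34650), annotated as squalene synthase, the enzyme at the entry to sterol synthesis, was as high in CB-RNA as in RNAe + RNAf. It had 7.03 RPM in RNAe, 44.0 in RNAe + RNAf and 45.4 in CB-RNA. CGLD27 had 24.6, 152 and 51.6. NdhU, SQS2 and CGLD27 were the 3 of the 10 falls that were also 2-fold lower in RNAe than in CB-RNA.

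The 10 largest rises were between 7.64-fold and 14.3-fold. LHCB3 (AT5G54270, chromosome 5, RefSeq 22038165 to 22039568, plus strand), an antenna protein of photosystem II, had 342 RPM in RNAe (5158 reads) and 23.9 RPM in RNAe + RNAf (267 reads), a log2 change of 3.84 (95% interval 3.66 to 4.02). CB-RNA had 642 RPM. PRR7 had 715 RPM in RNAe, 66.1 in RNAe + RNAf and 1368 in CB-RNA. Light and growth regulators were also among them: PIF4, a phytochrome interacting factor, had 348 RPM in RNAe, 36.4 in RNAe + RNAf and 334 in CB-RNA, and its relative PIL6 had 384, 50.3 and 439.

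ASN1, the asparagine synthetase that is active in darkness, had 1896 RPM in RNAe, 218 in RNAe + RNAf and 2009 in CB-RNA. The remaining rises were AT3G54500, AT1G73480, AT5G35970, AT5G64170 and LHCA4. In all 10, RNAe over CB-RNA lay between -1.20 and 0.19 on the log2 scale, so none of the 10 was 2-fold higher than in CB-RNA. The difference between the 2 preparations that kept polyadenylated RNA moved with these results, and the part of the removal itself in them was not tested.

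**Figure D5:**
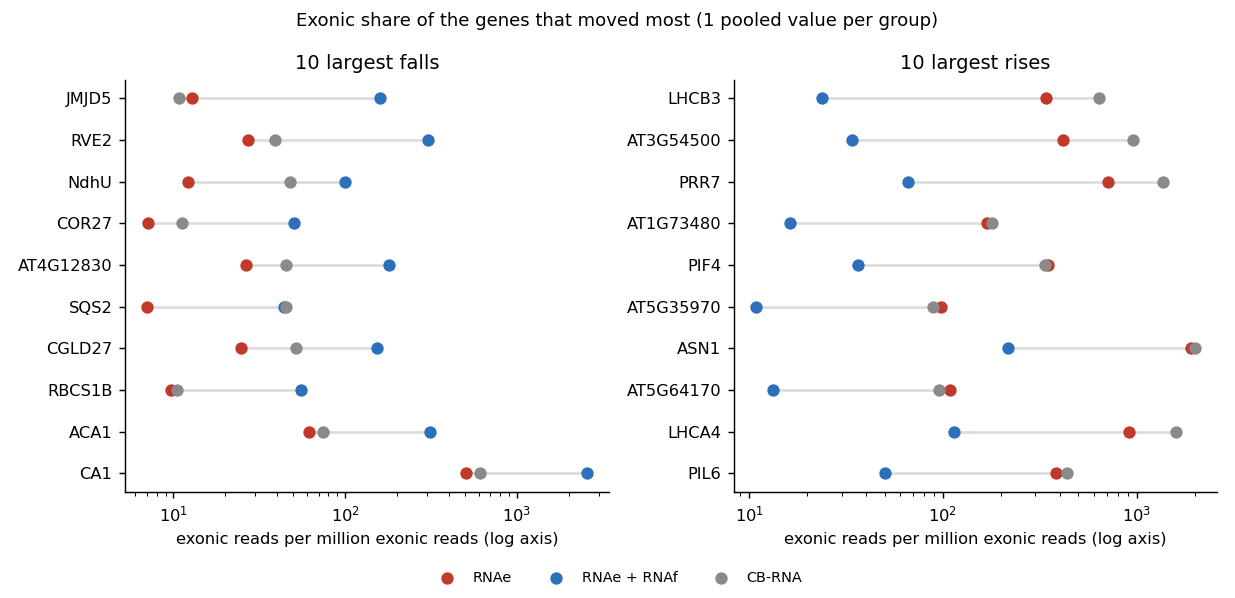
Exonic reads RPM in RNAe, RNAe + RNAf and CB-RNA for the 10 genes with the largest falls and the 10 with the largest rises (log axis, 1 pooled value per group). In most rows CB-RNA lies nearer to RNAe than to RNAe + RNAf. Among the falls, NdhU, SQS2 and CGLD27 were also 2-fold lower in RNAe than in CB-RNA. Among the rises, AT3G54500 was 2-fold lower in RNAe than in CB-RNA.

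Light-harvesting chlorophyll proteins, the antenna of both photosystems, were higher in RNAe than in RNAe + RNAf as a list, but lower than in CB-RNA (median log2 -0.56). Of 15 genes 13 were members, and 10 of these were 2-fold higher and 0 lower, against 5.1% lower and 2.52% higher over all members. The median log2 change was 2.16 against -0.04 over all members. Their summed share was 4109 RPM in RNAe, 903 in RNAe + RNAf and 6103 in CB-RNA. LHCB2.1 had 194 RPM in RNAe and 5.82 in RNAe + RNAf, LHCB2.2 217 and 6.98, and LHCB2.3 121 and 7.25. These genes are close copies of each other and uniquely mapped reads alone were counted, so the split between them is uncertain. Lhca5, a minor antenna protein, was the only one of the 13 with a negative change, with 20.7 RPM in RNAe and 34.8 in RNAe + RNAf.

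Photosystem subunits moved less. Of 15 members, 2 were 2-fold higher, against 2.52% of all members, PSAF with 42.8 RPM in RNAe and 19.3 in RNAe + RNAf, and PSAL with 112 and 55.05. The median log2 change was 0.49. Against CB-RNA the median of this list was -0.65, so its direction turned too.

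Calvin cycle enzymes, which fix carbon in the chloroplast stroma, were lower in RNAe than in RNAe + RNAf. Of 16 members 5 were 2-fold lower and 0 higher, against 5.1% lower and 2.52% higher over all members. The median was -0.74 against RNAe + RNAf but -0.14 against CB-RNA. RBCS2B, a small subunit of rubisco, had 83.8 RPM in RNAe, 377 in RNAe + RNAf and 80.7 in CB-RNA. GAPB, a subunit of the chloroplast glyceraldehyde-3-phosphate dehydrogenase, had 399.8 RPM in RNAe, 1077 in RNAe + RNAf and 447 in CB-RNA. The intronic shares of the list had a median log2 change of -1.87, a larger fall than that of the exonic shares, and the exonic fraction was lower in RNAe in 3 of the 16. RBCS genes are close copies and their separate values are uncertain.

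Circadian clock genes divided by gene. Of 15 members 6 were 2-fold higher and 0 lower, against 5.1% lower and 2.52% higher over all members. The median log2 change was 0.11 against RNAe + RNAf and turned to -0.27 against CB-RNA. JMJD5 and RVE2, described above with falls, are not in this list. GI had 265 RPM in RNAe, 52.0 in RNAe + RNAf and 272 in CB-RNA, and PRR5 had 107, 30.9 and 129. The other 4 were PRR7, RVE8, AT3G54500 and AT5G64170. The evening gene TOC1 had 116 RPM in RNAe, 191 in RNAe + RNAf and 116 in CB-RNA, and ELF3, of the evening complex, 33.8, 67.0 and 48.2.

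Ribosomal protein genes, chosen by name and including some of organelles, had 30 of 251 members 2-fold lower and 1 higher, against 5.1% lower and 2.52% higher over all members. The median log2 change was -0.53. The direction turned against CB-RNA, with a median of 0.33. The heat shock chaperones of the HSP70, HSP90 and HSP100 families had a median of -0.35 against RNAe + RNAf and 0.90 against CB-RNA. BIP1, with 124 RPM in RNAe and 193 in RNAe + RNAf, and SHD, with 539 and 747, had the most reads. Of 11 members 0 were 2-fold lower and 2 higher, against 5.1% lower and 2.52% higher over all members, HSP101 with 35.5 RPM in RNAe, 14.7 in RNAe + RNAf and 5.57 in CB-RNA, and HSP70 with 10.0, 4.297 and 2.495. Among the phenylpropanoid and flavonoid enzymes 1 of 9 was lower, against 5.1% of all members, 4CL3 with 33 reads in RNAe and 86 in RNAe + RNAf. The median of this list was -0.48 against RNAe + RNAf and turned to 0.48 against CB-RNA.

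Other lists had no or few genes past 2-fold, where 5.1% of all members were lower and 2.52% higher. The 19 SR splicing factors, which bind exons and help to define splice sites, had 0 genes past 2-fold, with a median of 0.10 and a range of -0.83 to 0.78. SR30 had 484 RPM in RNAe and 427 in RNAe + RNAf, and SR34 387 and 356. No gene passed 2-fold among 21 actin and tubulin members (median -0.13), 11 members of the small RNA machinery (median 0.19) and 42 proteasome subunits (median 0.05). Aux/IAA and JAZ repressors had 1 of 29 lower. NLR immune receptors had 4 of 89 lower and 3 higher, and WRKY factors 2 of 44 lower and 3 higher. The 462 genes with 20 or more introns had 3 lower (0.649%) and 1 higher.

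The genes with PCR primers in the study showed small changes. FUG1, a chloroplast translation initiation factor, had 333 RPM in RNAe and 389 in RNAe + RNAf. ABCB19, an auxin transporter, had 499 and 413, and NIR1, nitrite reductase, 24.8 and 24.97. AT5G55220, a trigger factor type chaperone, had the largest difference of the 5, with 102 and 179, and VIM1, a DNA methylation factor, had 19.6 and 17.0.

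A few genes lost or gained share against both other preparations, and these were picked out after the values were seen. Of the 103 that were 2-fold lower than in both, 68 (66.0%) were under 2 kb, against 31.2% of all members with 20 reads in CB-RNA. Low counts were common here. At least 100 exonic reads in all 3 groups were found in 43 of the 103 lower and 24 of the 79 higher genes. Among the 14667 members with 20 reads in CB-RNA, 11475 had that many. Beside SQS2, NdhU and CGLD27, the 103 lower genes included LpxC3, LP1, AT2G05310, AT1G55260, TTN10, PME5, FZR3 and PnsL1. LP1, a lipid transfer protein of the epidermis, had 7.16 RPM in RNAe, 21.4 in RNAe + RNAf and 19.3 in CB-RNA. PME5, a pectin methylesterase, had 25.9, 58.6 and 84.8. LpxC3 has close copies beside it, so its value is uncertain.

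Of the genes higher than in both, AT5G48570, an FKBP-type immunophilin, had 124 RPM in RNAe, 18.3 in RNAe + RNAf and 19.4 in CB-RNA. BCA3, a beta carbonic anhydrase, had 130.1, 44.1 and 21.9, and SUS4, sucrose synthase, 32.5, 11.4 and 8.73. AAP4, an amino acid permease, had 120.5, 48.7 and 39.5. RNAf over CB-RNA had a median log2 of 0.47 among the 79 higher genes and 0.50 among the 103 lower ones. CB-RNA was also part of the rule that picked these genes, so these medians are not independent of the choice.

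Within genes, the largest falls of the exonic fraction among genes with 500 or more exonic reads in each group, a rule also set after the values were seen, lay between 14.0 and 16.3 percentage points. AT3G48140, which encodes a B12D protein, had 65.3% in RNAe (62.3 to 68.2) and 81.7% in RNAe + RNAf (78.97 to 84.1). KIN2, a cold- and stress-induced gene, had 65.5% in RNAe, 81.0% in RNAe + RNAf and 65.9% in CB-RNA. CP29, a chloroplast RNA-binding protein, had 62.8%, 77.0% and 63.2% while its exonic share changed by -0.05 against RNAe + RNAf. In both genes RNAe was thus close to CB-RNA. HXK2, hexokinase 2, had 72.2% in RNAe, 86.1% in RNAe + RNAf and 76.6% in CB-RNA, and AT3G48140 had 72.5% in CB-RNA.

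The 8 largest rises of the fraction included RCA, CA1, FBA1, CSP41A, PnsB4, SQP1, FRO6 and RPS6. RCA had 89.9% in RNAe (89.2 to 90.5) and 75.5% in RNAe + RNAf (74.5 to 76.4), with an exonic share of 488 RPM in RNAe and 525 in RNAe + RNAf. CA1 had 78.5% and 66.7%, FBA1, an aldolase, 89.9% and 79.4%, and CSP41A, a chloroplast RNA-binding endonuclease, 82.6% and 71.8%. In CB-RNA the fraction of RCA was 86.2% and that of CA1 75.4%.

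The polyadenylated libraries that the comparison did not use were set beside the change of share. Among genes with a 2-fold lower exonic share in RNAe, mRNA over CB-RNA had a median log2 of 0.69 (708 genes), and among those with a higher share -0.58 (337 genes), against -0.26 over all members. For RNAf over CB-RNA the medians were 0.38 (726 genes) and 0.03 (362 genes), against 0.06. By size of change, mRNA over CB-RNA was 0.92 in the 51 genes with a change of -2 or below, -0.62 in the 1374 genes between 0.5 and 1, -0.69 in the 267 between 1 and 1.5, -0.39 in the 60 between 1.5 and 2, and -0.29 in the 38 above 2. RNAf over CB-RNA was 0.16 in those 51 genes, 0.42 between -1.5 and -1, -0.17 between 0.5 and 1, 0.05 between 1 and 1.5, 0.34 between 1.5 and 2 and -0.09 above 2, with no steady trend. These ratios share CB-RNA, not RNAe or RNAe + RNAf. CB-RNA itself differed between the sets, with CB-RNA over RNAe + RNAf at a median of -0.99 in the lower and 0.95 in the higher genes. Among the 103 genes lower than in both preparations, mRNA over CB-RNA had a median of -0.28, and among the 79 higher ones 0.32, the reverse order.

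Runs of A within a transcript could also be held by oligo d(T). The longest run of A on the sense strand was read from the reference for exons and introns of each gene. In exons the median log2 change of share was -0.10 in 4591 genes with runs under 6 bases, 0.01 in 963 genes with runs of 10 or 11 bases and -0.09 in 49 genes with runs of 20 bases or more. In introns the medians lay between -0.08 and 0.09. The 49 genes with the longest runs in exons had 14.3% 2-fold lower, against 5.1% of all members. With runs of 12 to under 15 bases 4.37% were lower, and with runs of 15 to under 20 bases 3.40%, so there was no steady rise with run length. In the 49 genes RNAe over CB-RNA had a median log2 of 0.01. In genes of 2 to 5 kb the difference between runs of 12 bases or more and runs under 6 bases was 0.04 for exons and -0.06 for introns.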

How the data were processed

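The authors isolated chromatin-bound RNA from seedlings, removed rRNA with riboPOOL probes and, for RNAe, polyadenylated RNA with oligo d(T) beads, and made stranded libraries. Per the labels and methods, reads were trimmed with Trimmomatic 0.39 and mapped to TAIR10 with HISAT2 2.2.0, SAMtools 1.3.1 was used, uniquely mapped reads were kept, and genes were chosen by FPKM from StringTie. The deposited tables give, for each intron of the longest transcript, the exonic and intronic read counts at both splice sites and their ratio. Window width, use of strand in counting and the way libraries were joined are not given in the sources used here. If strand was not used, reads of overlapping antisense genes cannot be told apart. Each of the 5 tables holds 1 set of values per group, treated as pooled, so no test, standard deviation or analysis by replicate was possible.

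From the counts, exonic share, exonic fraction and SS ratios were computed with Python 3.11.15, numpy, pandas and scipy. Log2 changes of SS ratios, of intronic shares and of reads beside single introns used a pseudocount of 0.5, at least 10 exonic reads at a site in both groups for ratios, and at least 20 exonic reads beside an intron over both groups. Intervals of shares follow Clopper and Pearson, those of fractions and ratios Wilson, and those of ratio changes the log odds. The computation was tested on simulated data. RefSeq (TAIR10.1) gave names, gene ends and sequence, and 98.8% of 121170 introns began with GT and ended with AG there. Gene length was taken from the deposited data and equalled that of RefSeq in 4140 of 22121 genes. Distances to the 3ʹ end use the RefSeq end and are approximate. Sequence features leave out 74 introns whose given start exceeds the end.

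Named genes were the 10 largest falls and 10 largest rises with at least 100 reads in both groups and an interval excluding no change, the 2 most-read members and the extremes of each list, 3 genes each with the largest and smallest change between the 5ʹ and 3ʹ parts of a gene, the 4 largest rises and falls of the ratio at each site, and the genes with PCR primers. Other list members are named for illustration. The members and lists were chosen with earlier results of these data known. Genes of other function caught by the name rules of the ribosomal and proteasome lists were taken out after values were seen. Alternatives were other read minimums, scalings, splice sites, length measures and CB-RNA as the reference.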

Additional observations from a re-analysis of the deposited data

How the results depend on the processing

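No paired analysis was possible because each group is 1 pooled set of counts, and for the same reason neither edgeR nor leaving out a library could be run. Counting error and the 20-read minimum limit single genes, and the spread between libraries is unknown. With 100 or more exonic reads in each group, the exonic share was 2-fold lower in 432 (3.75%) and higher in 162 (1.41%) of 11514 genes. The exonic fraction was lower in 584 of them. At this minimum CB-RNA was higher than RNAe + RNAf in 288 genes, and the difference between long and short genes was 0.40. That difference was 0.37 with at least 50 reads and 0.37 with 3ʹ sites alone. With CB-RNA in place of RNAe + RNAf, 302 (1.99%) of 15159 genes were lower and 760 (5.01%) higher. The fraction was then lower in 763, the difference by gene length was 0.19, that by position -0.50, and those by intron length -0.031 (5ʹ) and -0.0068 (3ʹ).

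The 9931 genes whose CB-RNA share lay within 1.5-fold of RNAe + RNAf were a choice made after seeing the data. They held 205 lower (2.06%) and 106 higher (1.07%) and gave 0.30 for gene length. Against both preparations, also chosen after seeing the data, 103 of 14667 genes were lower and 79 higher. With mRNA in place of RNAf the difference between lower and higher genes was 1.27. The order was reversed in the genes lower or higher than in both preparations. For runs of A in genes of 2 to 5 kb the values were 0.041 in exons and, with the sign turned, -0.062 in introns. Among named genes changed by 2-fold or more, the sign turned against CB-RNA for LHCB3 (-0.91), AT3G54500 (-1.20), PRR7 (-0.94), LHCA4 (-0.80), LHCB2.1 (-0.54), PSAF (-0.51), LHCB5 (-0.40), PIL6 (-0.19), AT5G15260 (-0.19), ASN1 (-0.083), AT1G73480 (-0.080), JMJD5 (0.25) and AT1G33120 (0.29). Another 82 named values moved outside their interval and 22 stayed inside. Some of the 82 also turned sign, such as RBCS1A (0.78) and BIP1 (0.77), whose changes were under 2-fold. The cause was not tested. Scaling by uniquely mapped reads moved the median gene to -0.13.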
